A study of Mus musculus with 6 samples.

Results

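The amino acid transporter genes of mouse thyroid were taken as every gene whose symbol begins with Slc1a, Slc3a, Slc6a, Slc7a, Slc36a, Slc38a or Slc43a, leaving out Slc6a4 and Slc7a11. This gave 60 of the 19505 named genes on the array, each with 1 probe set: 7 of Slc1a, 2 of Slc3a, 18 of Slc6a, 15 of Slc7a, 4 of Slc36a, 11 of Slc38a and 3 of Slc43a. Slc6a16, which the naming rule also covers, has no named probe set here. Slc7a6os, counted under Slc7a by its symbol, is the neighbour of Slc7a6 on the opposite strand and is no transporter, which leaves 59 transporter genes.

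RNA of 1 thyroid lobe per mouse was hybridised to 1 array per mouse. Foxe1 is a forkhead transcription factor of thyroid follicular cells. The 3 knockouts were Foxe1flox/flox/Cre and the 3 controls are labelled as Cre controls. All were of a C57BL/6J background. Per the labels' protocols, tamoxifen, which switches on the recombinase, was injected into the abdomen at 0.05 g/kg on 5 days in succession at 6 to 8 weeks of age, and lobes were taken 2 weeks after treatment. The promoter that drives Cre and the sex of the mice are not stated there. Values are log2 signals per probe set made with RMA, a method that corrects background and equalises the arrays. A difference of 1 is a doubling. Differences are knockout minus control, tested with limma, and n is 3 arrays per group throughout. The p-values measure the spread between these mice, and 3 arrays a group limit the precision. Signals of different genes are not compared as levels of RNA.

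Amino acids cross cell membranes through carriers that differ in substrate and in driving force. Slc1 carriers move glutamate or exchange small neutral amino acids, and Slc6 carriers use sodium and chloride to take up neutral amino acids, creatine, taurine and neurotransmitters. Slc7 light chains exchange amino acids once bound to an Slc3 heavy chain, while the cationic Slc7 carriers work alone. Slc36 carriers are coupled to protons, Slc38 carriers move glutamine and other neutral amino acids with sodium, and Slc43 carriers let large neutral amino acids run down their gradient. Follicular cells build and break down thyroglobulin, which uses and releases amino acids in bulk, and some carriers of the Slc7 type also move iodotyrosines and thyroid hormone.

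Foxe1 itself read 7.04 to 7.60 in the controls against 2.88 to 3.33 in the knockouts (difference -4.19, limma adjusted p = 0.000442), as labelled. Array medians lay between 5.62 and 5.69 and lower quartiles between 3.49 and 3.60. Of 12 measured follicular genes, 1 passed the test, the transcription factor Hhex (difference 2.46, limma adjusted p = 0.0273), and 7 read higher on all 3 knockouts than on all 3 controls, where 0.338% of all probe sets passed and 9.28% lay higher in this way. Of the 7, Slc26a4 lay below the lower quartile on all 6 arrays. The other 5 genes had overlapping groups, with thyroglobulin, Tg, at 0.04 and Duoxa2, the only negative difference, at -1.07. The mean log2 signal of the 12 ran from 7.99 to 9.40 in the controls, lowest in control 3, and from 9.83 to 10.32 in the knockouts. Lobes also held other tissue: the mean of 10 airway genes was 15.05 to 15.82 in controls against 14.30 to 14.43 in knockouts. That of 15 skeletal muscle genes was 16.36 to 16.61 in controls and 15.27 to 16.14 in knockouts, lowest in knockout 3. The parathyroid mean spread widely, from 10.84 to 13.05 and from 8.09 to 12.42, and parathyroid hormone, Pth, read 3.56 on knockout 1 and 10.06 on knockout 3 against 17.02 to 19.68 on the other arrays. Scg5, a secretory granule gene of the same list and its only call, went the other way, at 6.28 to 8.62 in the controls against 11.88 to 12.61 in the knockouts (difference 4.36, limma adjusted p = 0.0269). In bulk tissue, fewer cells of a type and less RNA per cell cannot be told apart, and the part of these tissues in the results below was not tested.

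**Figure D1:**
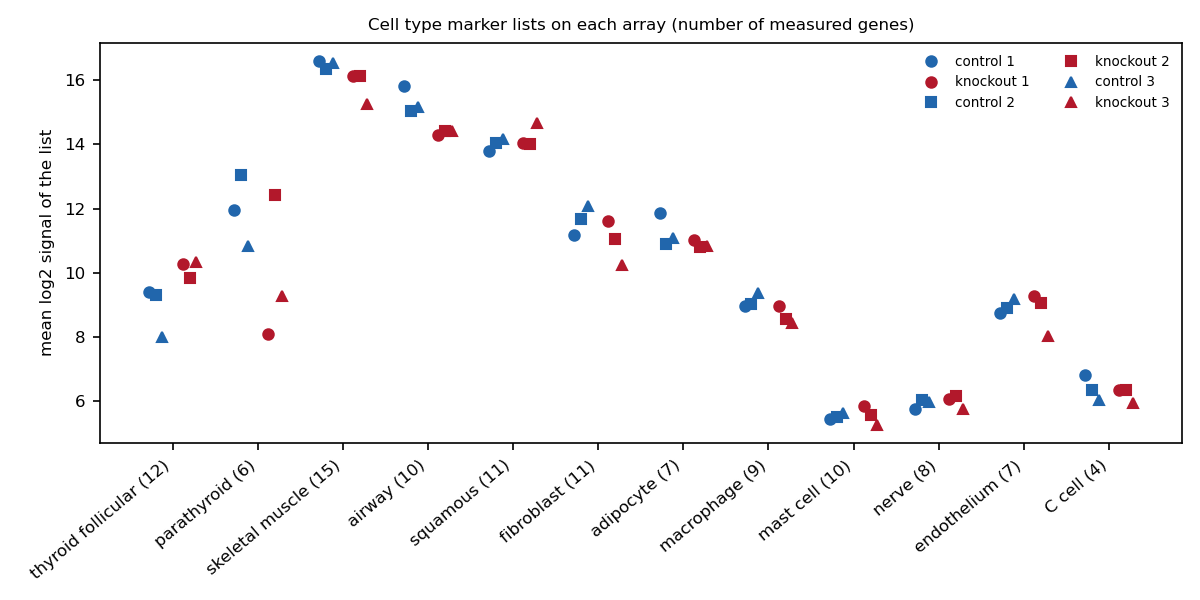
Mean log2 signal of 12 cell type marker lists (y axis) on each array, with controls in blue, knockouts in red, and replicates 1, 2 and 3 as circle, square and triangle. Arrays can be compared within a list: the airway list lies lower in the knockouts (14.30 to 14.43) than in the controls (15.05 to 15.82), and the follicular list is lowest in control 3 (7.99).

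None of the 60 genes passed an adjusted p of 0.05 over all 22206 probe sets (limma, Benjamini-Hochberg), where 0.338% of all probe sets did (0.252% higher and 0.0856% lower). At an unadjusted p under 0.05 there were 12, with 9 higher and 3 lower in the knockout, 20% in all, against 12.7% of all probe sets (6.61% higher and 6.13% lower). The groups did not overlap for 10 of the 60, with 7 higher and 3 lower, which is 16.7% against 18.1% of all probe sets (9.28% higher and 8.78% lower), a share near the background. Both marks together were met by 8, with 7 higher and 1 lower, against 11.1% of all probe sets (5.97% higher and 5.17% lower). Differences were positive for 28 and negative for 32, or 46.7% positive against 46.8% of all probe sets. On all 6 arrays, 9 of the 60 lay below the lower quartile, where 15.9% of all probe sets did. The median difference over the 60 was -0.01, beside -0.02 over all probe sets. A difference over 1 log2 unit was seen for 6 genes, against 3.88% of all probe sets: Slc6a2, Slc38a3, Slc6a19 and Slc7a3 upward, Slc38a4 and Slc6a14 downward. The middle of the 60 thus lay where that of all probe sets lay, and the wide differences were those of single genes.

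By family, the median differences were -0.05 for Slc1a, -0.02 for Slc3a, -0.03 for Slc6a, 0.15 for Slc7a, -0.09 for Slc36a, -0.04 for Slc38a and -0.29 for Slc43a, with those of Slc3a, Slc6a and Slc38a turning positive, by 0.03 or less, when arrays were centred on their medians. The Slc7a median moved with several arrays: it was -0.04 without knockout 1, 0.045 without control 2, 0.033 without control 3 and 0.037 without knockout 3. It moved little without control 1 (0.143) or knockout 2 (0.123), and was 0.073 without Slc7a6os. That of Slc36a was 0.087 among probe sets above the median level, 0.003 without control 2, 0.006 without knockout 3 and -0.21 without knockout 2. The Slc38a median was 0.078 without control 1 and -0.145 without knockout 3. Signs also turned for Slc3a (0.021 without control 3), Slc6a (0.01 without knockout 1) and Slc43a (0.30 without knockout 3). Slc1a stayed negative without any 1 array, from -0.135 (control 2 left out) to -0.007 (knockout 3 left out). Every family held members on both sides of 0. Slc6a had the widest range, running from -1.57 to 2.17, followed by Slc38a from -1.36 to 1.59. Slc7a ran from -0.92 to 1.07, and its 15 genes included 1 whose groups did not overlap.

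**Figure D2:**
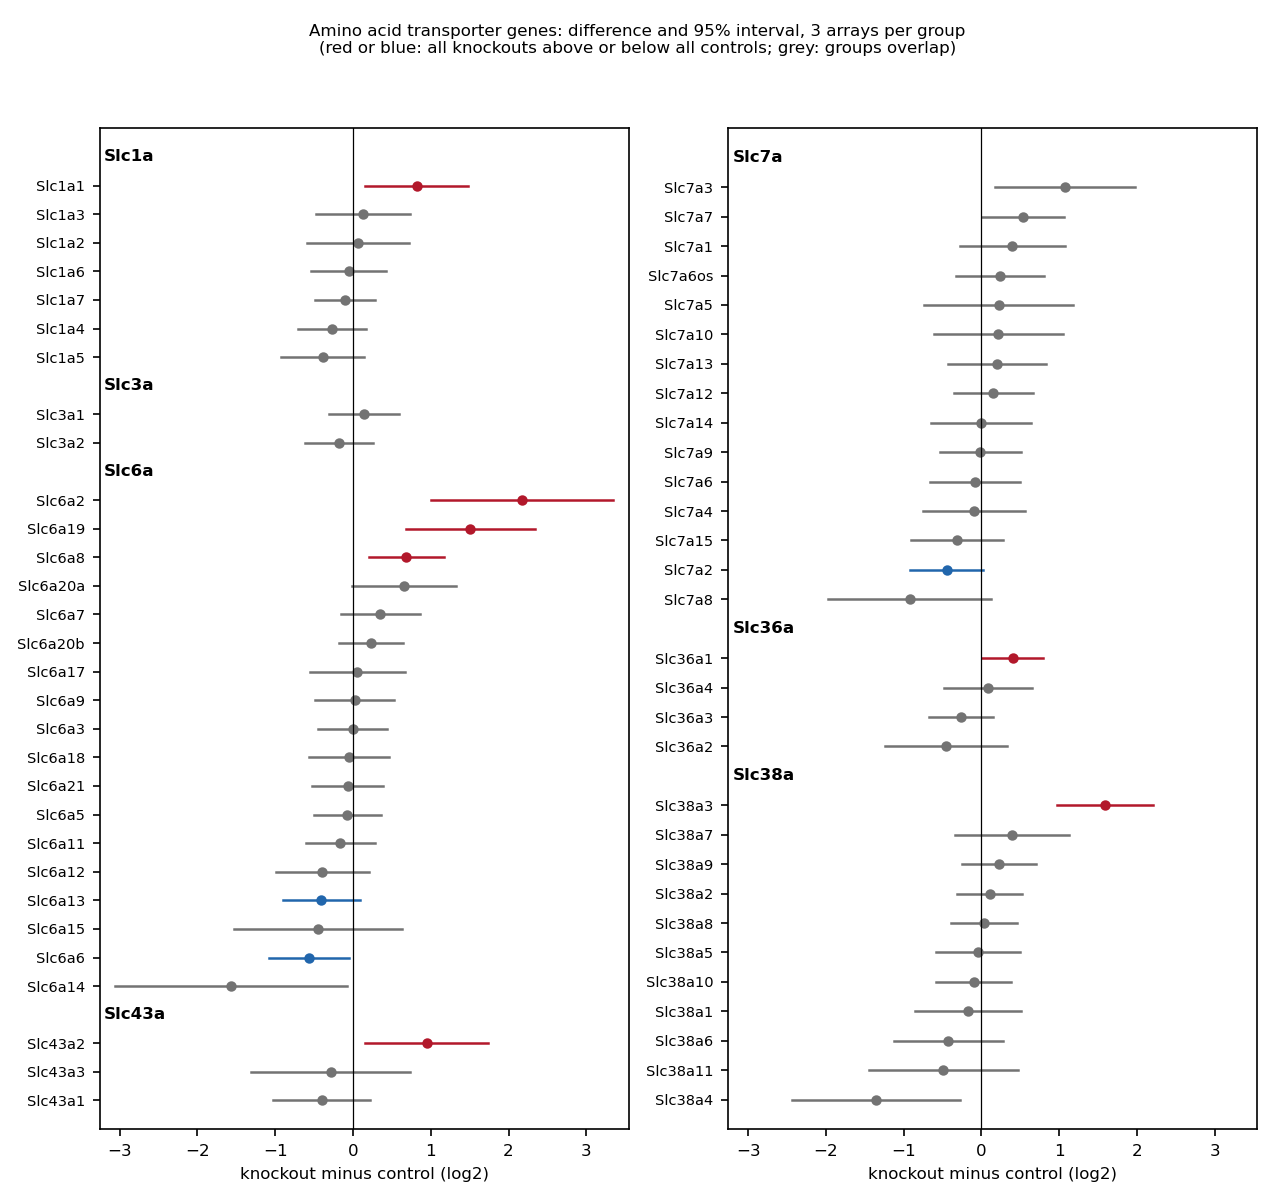
Difference between knockout and control (x axis, log2) for each of the 60 genes, grouped by family, as a point with its 95% interval from limma. Red marks the 7 genes whose knockouts all lie above the controls, blue the 3 whose knockouts all lie below, and grey the 50 whose groups overlap.

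Among the Slc6 carriers, Slc6a2 had the largest difference of the 60 genes. It encodes the noradrenaline transporter, which clears noradrenaline released by sympathetic nerve endings. It read 4.60, 5.63 and 5.37 in the controls against 6.41, 7.10 and 8.61 in the knockouts. Every knockout lay above every control, and knockout 3 stood highest. The difference was 2.17 (SE 0.51, 95% interval 1.00 to 3.34, limma adjusted p = 0.131), a 4.51-fold gap, and without knockout 3 it was 1.55. Other genes of noradrenergic nerves, picked after this value was seen, had overlapping groups. Th, which makes the dopamine precursor, read 3.83 to 4.39 in the controls against 3.56 to 4.09 in the knockouts, and Dbh, which makes noradrenaline itself, read 3.23 to 3.97 and 2.89 to 3.52. Th lay just above the lower quartile of the arrays, and Dbh below it on 5 of 6. Of the same pick, Slc18a2 differed by -0.18 and Phox2a by 0.06. In a list of 8 measured nerve and Schwann cell genes, 5 differences were positive, where 46.8% of all probe sets were. That list had a median of 0.25 and ran from -1.33 to 1.02, and the part of nerves here was not tested. The dopamine transporter Slc6a3 lay below the lower quartile on all 6 arrays, with a difference of -0.003 that turned to 0.042 when arrays were centred on their medians.

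Slc6a19 encodes B0AT1, the sodium-driven carrier that takes up neutral amino acids at the apical face of gut and kidney epithelium. Its signal was 7.99, 8.25 and 8.90 in the controls against 9.66, 9.34 and 10.66 in the knockouts. The groups did not overlap, with knockout 3 again highest. They differed by 1.51 (SE 0.37, 95% interval 0.68 to 2.34, limma adjusted p = 0.139), or 2.84-fold, and by 1.12 without knockout 3. Collectrin, Cltrn, the kidney partner that carries B0AT1 to the cell surface, read 2.76 to 3.40 over both groups, below the lower quartile of every array.

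Since the deleted factor binds DNA, promoters were searched for forkhead-type letters. RefSeq promoters (GRCm38.p6, 250 bases before to 50 after the start) were held for 43 of the 60 genes, in 64 windows. GTAAACA or ATAAACA, on either strand, stood in 2 of these 64, those of Slc36a3 and Slc6a5, against 7.97% of all 32851 promoters. Both genes lay below the lower quartile on all 6 arrays. None of the 5 genes that have a promoter in the table and groups that do not overlap held these letters, which says only that they are not in this window. The promoter of Slc6a19 is shown as that of the gene with the largest difference among these 5. It runs along chr13:73692627-73692886 on the minus strand, from 250 bases before the start to the first 10 after it.

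Slc6a19: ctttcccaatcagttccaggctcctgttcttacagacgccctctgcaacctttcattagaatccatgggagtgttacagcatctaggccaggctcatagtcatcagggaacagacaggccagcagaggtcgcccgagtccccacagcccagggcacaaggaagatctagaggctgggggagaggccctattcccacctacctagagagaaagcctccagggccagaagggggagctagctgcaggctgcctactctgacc

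This window held none of the letters searched, so it is all in lower case.

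The creatine transporter Slc6a8 read 14.97, 15.58 and 15.32 in the controls against 15.79, 16.06 and 16.08 in the knockouts. All knockouts lay above all controls, by a mean of 0.69 (SE 0.21, 95% interval 0.20 to 1.17, limma adjusted p = 0.22). The taurine transporter Slc6a6 lay the other way, at 12.26, 11.89 and 12.38 in the controls against 11.85, 11.72 and 11.26 in the knockouts. Its knockouts were all below its controls, though knockout 1 and control 2 were close, and the difference was -0.57 (SE 0.23, limma adjusted p = 0.344). Knockout 3, lowest for Slc6a6, was also lowest for the muscle genes (15.27). It was lowest for other lists too, such as fibroblast (10.25), endothelium (8.03) and macrophage (8.42). The part of these tissues here was not tested.

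Slc6a14 encodes ATB0,+, a carrier of neutral and cationic amino acids found in airway and gut epithelium. It read 8.97, 10.17 and 10.71 in the controls against 9.55, 6.89 and 8.71 in the knockouts. The groups overlapped, and knockout 2 alone stood far below the rest. The difference was -1.57 (SE 0.66, limma adjusted p = 0.365) and -0.82 without knockout 2. The airway mean was 14.30, 14.42 and 14.43 in knockouts 1, 2 and 3, and its part here was not tested.

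Of the other Slc6 genes, Slc6a13, a GABA and taurine carrier, was the last whose groups did not overlap. It read 5.60 to 6.25 in the controls against 5.32 to 5.54 in the knockouts (difference -0.41, limma adjusted p = 0.49), and the difference was -0.21 without control 3, the highest array. The proline carrier Slc6a20a differed by 0.66 (limma adjusted p = 0.399) and its neighbour copy Slc6a20b by 0.23, with overlapping groups for both. As close copies of each other, their signals may not be fully separate. The betaine carrier Slc6a12 was at -0.40 and the neutral amino acid carrier Slc6a15 at -0.45, where control arrays spanned 4.48 to 5.25 and knockouts 3.50 to 5.60. Without 1 array Slc6a12 ran from -0.68 (control 1 left out) to -0.19 (control 3 left out), and Slc6a15 from -1.02 (knockout 1 left out) to 0.027 (knockout 3 left out). The glycine carrier Slc6a9 (0.02, and -0.02 with quantile normalization renewed) and Slc6a17, a carrier of synaptic vesicles (0.06), lay close to 0. The rest, Slc6a5, Slc6a7, Slc6a11, Slc6a18 and Slc6a21, ran from -0.16 to 0.35, with no direction to be read from those within 0.05 of 0. Slc6a5 and Slc6a21 lay below the lower quartile on all 6 arrays, Slc6a7 and Slc6a12 on 4 and Slc6a15 on 1.

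Among the Slc38 carriers, Slc38a3 had the smallest p of all 60 genes, and rank 100 among the 22206 probe sets. It encodes SNAT3, which moves glutamine, histidine and asparagine with sodium and can release as well as take up glutamine. Its signal was 9.13, 9.97 and 9.29 in the controls against 11.25, 10.68 and 11.24 in the knockouts. The groups were well apart, with the lowest knockout above the highest control, control 2. The difference was 1.59 (SE 0.27, 95% interval 0.98 to 2.21, limma adjusted p = 0.0598), or 3.02-fold. It lay between 1.43 and 1.85 whichever array was left out. With a variance trend and robust fitting the limma adjusted p was 0.0419, past the threshold. It was 0.0959 with replicate number as a block, 0.0726 with the level of Y-linked genes as a covariate, and 0.0702 to 0.183 without 1 array.

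Slc38a5, the other system N carrier, differed by -0.04, or 0.007 with quantile normalization renewed, with overlapping groups (4.56 to 5.26 and 4.77 to 5.16). The system A carriers, which concentrate small neutral amino acids in the cell, gave differences of both signs. Slc38a4 read 8.96, 10.29 and 10.60 in the controls against 9.00, 9.03 and 7.74 in the knockouts. Control 1 was as low as knockouts 1 and 2, and knockout 3 was lowest. The difference was -1.36 (SE 0.48, 95% interval -2.44 to -0.28, limma adjusted p = 0.272). The mean of 3 Y-linked genes was 3.04 on control 1 and 2.65 on knockout 3, against 8.03 to 8.30 on the other arrays. With that mean as a covariate the difference of Slc38a4 was -1.37 and its limma adjusted p 0.0457. With replicate number as a block its limma adjusted p was 0.313. Without 1 array the difference of Slc38a4 ran from -1.855 to -0.935 and its limma adjusted p from 0.152 to 0.551. Slc38a2, the carrier induced when amino acids run short, read 15.52 to 15.64 in the controls against 15.49 to 15.89 in the knockouts (0.11). Slc38a1 differed by -0.17.

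The remaining Slc38 genes all had overlapping groups. Slc38a9, which reports lysosomal arginine to the growth kinase mTORC1, read 10.02 to 10.51 in the controls against 10.45 to 10.77 in the knockouts (0.23). The lysosomal carrier Slc38a7 differed by 0.39, Slc38a10 by -0.10, Slc38a6 by -0.43 and Slc38a11 by -0.49. Slc38a8 lay below the lower quartile on all 6 arrays.

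**Figure D3:**
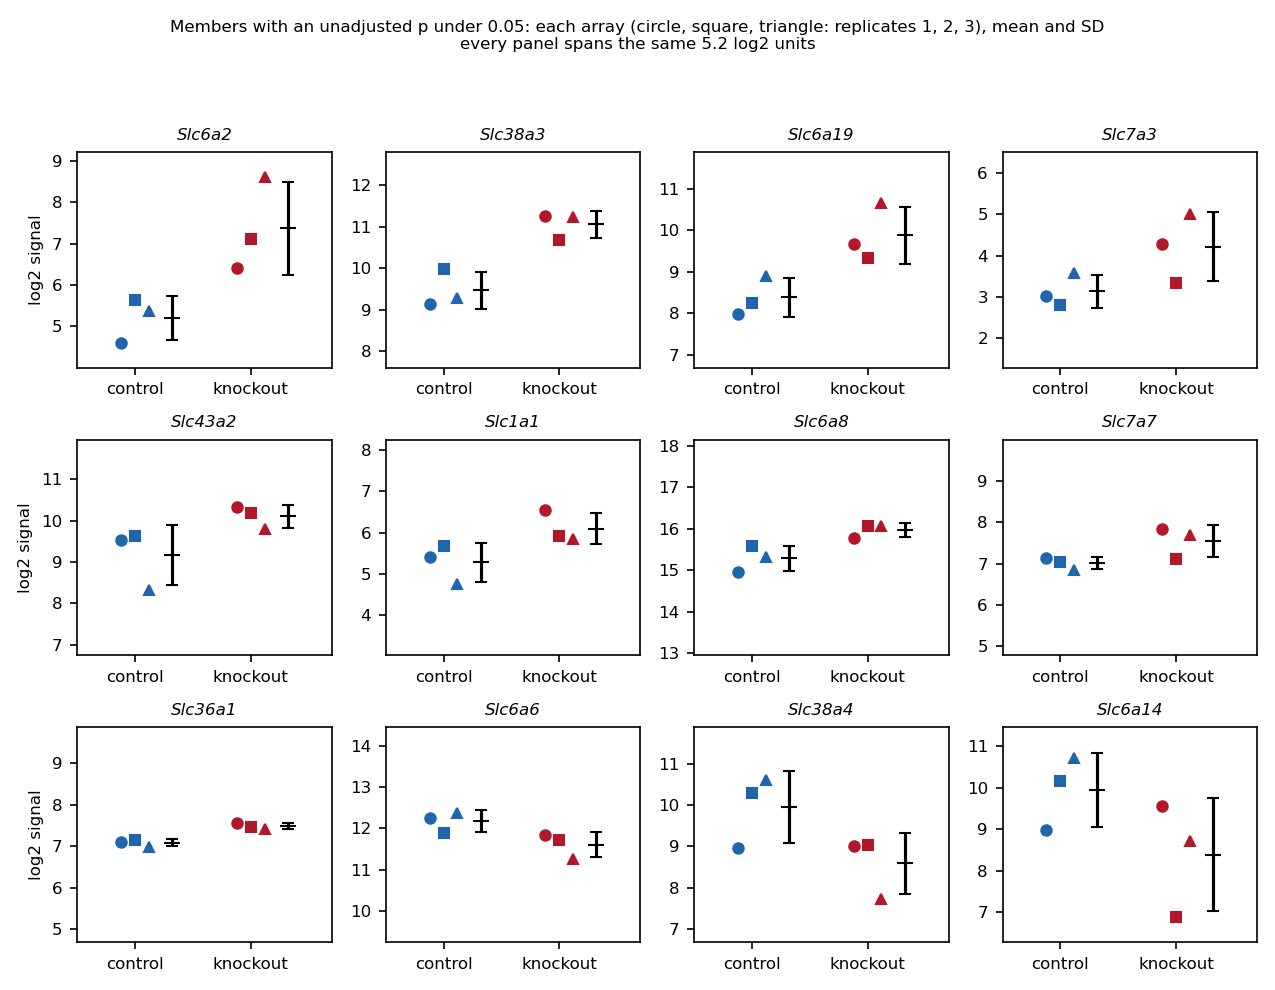
Log2 signal (y axis) on each array for the 12 genes with an unadjusted p under 0.05, with controls in blue, knockouts in red, and the mean and SD of each group in black. Slc38a3 and Slc6a2 show wide gaps between the groups, whereas the groups overlap for Slc38a4 and Slc6a14.

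The heavy chain Slc3a2, which brings most Slc7 light chains to the cell surface, read 14.84, 14.60 and 14.51 in the controls against 14.56, 14.26 and 14.60 in the knockouts. The groups overlapped, with a difference of -0.18 (SE 0.19, 95% interval -0.61 to 0.26, limma adjusted p = 0.768). Slc3a1, the heavy chain of the kidney cystine exchanger, differed by 0.14, and its light chain Slc7a9 lay below the lower quartile on all 6 arrays.

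Of the 9 light chains, none had groups that did not overlap. Slc7a5, or LAT1, which carries large neutral amino acids and some thyroid hormone, read 9.30, 9.30 and 8.36 in the controls against 8.84, 8.62 and 10.16 in the knockouts. Knockout 3 alone was above the controls, and the difference of 0.22 became -0.26 without it. Slc7a8, or LAT2, which exchanges neutral amino acids, iodotyrosines and thyroid hormone, read 7.95, 9.24 and 7.88 in the controls against 7.22, 8.31 and 6.77 in the knockouts. Its difference was -0.92 (SE 0.46, limma adjusted p = 0.454), and it was -0.48 without control 2, the highest array. Control 2 and knockout 2, the highest of each group for Slc7a8, were also the highest for the parathyroid genes (13.05 and 12.42), whose part here was not tested.

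Slc7a7, or y+LAT1, exports arginine and lysine across the basolateral face of epithelia. It read 7.14, 7.04 and 6.85 in the controls against 7.83, 7.10 and 7.70 in the knockouts. Knockout 2 fell among the controls, and the difference was 0.53 (SE 0.23, limma adjusted p = 0.386). Its sister Slc7a6 differed by -0.08, and Slc7a6os, on the strand opposite to Slc7a6, by 0.24. The others, Slc7a10, Slc7a12, Slc7a13 and Slc7a15, ran from -0.32 to 0.22. Slc7a12 lay below the lower quartile on all 6 arrays, Slc7a15 on 5, Slc7a13 on 3 and Slc7a10 on 1.

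The cationic carriers gave differences of both signs. Slc7a2, an arginine carrier of muscle, liver and activated macrophages, read 8.73, 8.44 and 8.58 in the controls against 8.12, 8.43 and 7.86 in the knockouts. The groups did not overlap, but knockout 2 and control 2 were almost equal (difference -0.45, SE 0.21, limma adjusted p = 0.415). Slc7a3 read 3.03, 2.81 and 3.57 in the controls against 4.29, 3.34 and 5.00 in the knockouts. Controls 1 and 2 and knockout 2 lay below the lower quartile of their arrays, close to background. The difference was 1.07 (SE 0.40, limma adjusted p = 0.297), and 0.68 without knockout 3. Slc7a1, the widespread arginine carrier, was at 0.40, or 0.085 without knockout 3. Slc7a4 was at -0.10, and Slc7a14 at -0.01, or 0.04 with arrays centred on their medians. Slc7a14 lay below the lower quartile on 3 arrays.

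In the Slc1 family the glutamate and cysteine carrier Slc1a1, or EAAC1, read 5.42, 5.67 and 4.75 in the controls against 6.54, 5.92 and 5.84 in the knockouts. All knockouts were above all controls, the nearest pair being knockout 3 and control 2. The difference was 0.82 (SE 0.29, 95% interval 0.16 to 1.48, limma adjusted p = 0.279). Control 3, the lowest array here, was also the lowest for the follicular genes, and without it the difference was 0.56. The glial-type glutamate carriers Slc1a2 (0.07) and Slc1a3 (0.13) lay near 0. Slc1a6 and Slc1a7 lay below the lower quartile on all 6 arrays, and Slc1a2 on 2.

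Both neutral exchangers of that family had negative differences with overlapping groups. Slc1a5, or ASCT2, a glutamine exchanger, read 11.79, 11.35 and 11.09 in the controls against 11.27, 11.00 and 10.80 in the knockouts (difference -0.39, SE 0.23, limma adjusted p = 0.546), and differed by -0.20 without control 1. Slc1a4, or ASCT1, a serine and alanine exchanger, read 5.93, 6.02 and 6.32 and then 5.77, 5.69 and 5.99 (difference -0.27, SE 0.19, limma adjusted p = 0.617).

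The large neutral carrier Slc43a2, or LAT4, read 9.53, 9.62 and 8.32 in the controls against 10.33, 10.19 and 9.79 in the knockouts. Every knockout was above every control, but control 3 was far below the other controls, as it was for the follicular genes. The difference was 0.95 (SE 0.35, 95% interval 0.16 to 1.73, limma adjusted p = 0.294), and 0.53 without control 3. Its relative Slc43a1, or LAT3, was at -0.40 and read 8.53 in control 3 against 7.53 and 7.63 in the other controls. Slc43a3, a carrier of purine bases, was at -0.29, and at 0.30 without knockout 3, which read 9.66 where the other 5 arrays read 10.90 to 11.63.

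Of the proton-coupled carriers, Slc36a1, or PAT1, exports small amino acids from lysosomes. It read 7.09, 7.16 and 6.99 in the controls against 7.56, 7.47 and 7.41 in the knockouts. The groups did not overlap and each was tight, with SDs of 0.0854 and 0.0755. The difference of 0.40 (SE 0.17, 95% interval 0.01 to 0.79, limma adjusted p = 0.377) lay between 0.36 and 0.44 whichever array was left out. Slc36a4 differed by 0.09 and Slc36a3 lay below the lower quartile on all 6 arrays. Slc36a2 was at -0.46, and at -0.04 without control 1, which read 7.22 where the other 5 arrays read 5.62 to 6.12.

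The promoter of Slc36a1 is shown because it holds a repeated element. It runs along chr11:55204090-55204349 (GRCm38.p6, RefSeq, plus strand), to the first 10 bases after the start. Capitals mark CACGTGAC, an E-box with its flank of the kind found at many lysosomal genes, a motif searched on both strands after this sequence was read.

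Slc36a1: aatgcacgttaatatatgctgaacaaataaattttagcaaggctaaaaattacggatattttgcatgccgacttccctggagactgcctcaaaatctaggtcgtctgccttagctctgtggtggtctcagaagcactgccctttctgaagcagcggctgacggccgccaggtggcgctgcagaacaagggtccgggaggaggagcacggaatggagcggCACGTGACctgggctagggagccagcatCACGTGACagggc

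The 2 copies stand at bases 220 to 227 and 248 to 255 of the window. No other of the 64 transporter windows held these letters, against 2.25% of all promoters. A match is a description of the letters and no sign of binding.

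Many carriers are induced when amino acids run short, through the factor ATF4 and elements with the core TGATGNAA. Of 8 such carriers listed (Slc7a5, Slc3a2, Slc7a1, Slc7a3, Slc1a4, Slc1a5, Slc38a2 and Slc6a9), 5 had positive and 3 negative differences, with Slc6a9 turning negative when quantile normalization was renewed, and all 8 had overlapping groups. None passed the adjusted threshold in limma, and 1, Slc7a3, had an unadjusted p under 0.05. Their median difference was 0.065. The core, on either strand, stood in 4 of the 64 windows, belonging to Slc1a4, Slc7a7 and Slc6a21, against 3.97% of all promoters. The windows of Slc1a4 (chr11:20332704-20332963, minus strand) and Slc7a7 (chr14:54417935-54418194, minus strand, 1 of 5 starts in the table) are shown as examples, with the core in capitals. The Slc6a21 window, with the core at bases 223 to 230, is not shown.

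Slc1a4: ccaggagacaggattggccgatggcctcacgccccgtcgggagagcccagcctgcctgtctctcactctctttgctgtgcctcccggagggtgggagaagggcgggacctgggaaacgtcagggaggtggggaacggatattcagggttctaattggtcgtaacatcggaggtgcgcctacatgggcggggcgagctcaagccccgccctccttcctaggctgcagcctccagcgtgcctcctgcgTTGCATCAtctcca

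Slc7a7: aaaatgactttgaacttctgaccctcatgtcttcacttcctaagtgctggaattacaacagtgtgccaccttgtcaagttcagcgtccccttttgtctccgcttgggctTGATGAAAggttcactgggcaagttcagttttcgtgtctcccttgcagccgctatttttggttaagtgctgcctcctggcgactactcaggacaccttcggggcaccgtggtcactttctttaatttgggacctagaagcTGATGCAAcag

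In Slc1a4 the core lies on the opposite strand at bases 247 to 254, and in Slc7a7 it stands at bases 110 to 117 and 250 to 257. The genes differed in opposite directions, by -0.27 and 0.53, as given above, with overlapping groups for both.

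Further genes of amino acid handling, from lists, gave no calls at the adjusted threshold either. Of 24 amino acid and peptide carriers of other families, 15 had positive differences (median 0.17), none passed the threshold, and 4 had an unadjusted p under 0.05, where 12.7% of all probe sets did. Slc25a13, the mitochondrial aspartate and glutamate exchanger, read 5.01 to 5.32 in the controls against 5.81 to 6.62 in the knockouts (difference 1.04, SE 0.24, limma adjusted p = 0.122). The gut peptide carrier Slc15a1 read 8.70 to 10.78 and 10.89 to 11.94 (difference 1.52, SE 0.52, limma adjusted p = 0.261). Slc15a2, the peptide carrier of kidney, had a difference of the other sign with overlapping groups (9.47 to 10.51 and 8.87 to 9.55, difference -0.81, SE 0.29, limma adjusted p = 0.293). Slc16a10, which carries aromatic amino acids and thyroid hormone, was lower on all knockouts (6.71 to 7.25 and 6.05 to 6.46, difference -0.74, SE 0.21, limma adjusted p = 0.183). Among 7 carriers of thyroid hormone, Slc16a10 and the 2 LAT genes included, 1 difference was positive, that of Slc7a5, and the median was -0.11. An unadjusted p under 0.05 was seen for 2, Slc16a10 and Slco1a4 (-0.53), both lower, beside 12.7% of all probe sets. Of the 7, 2 lay below the lower quartile on all 6 arrays and 3 on at least 1, so part of this list is close to background.

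Of 23 enzymes and factors of the amino acid response, 9 had positive differences, none passed in limma and 2 had an unadjusted p under 0.05 (median -0.11). That count, like those of the next lists, stands beside 12.7% of all probe sets. Chac1, a glutathione-degrading enzyme, was at 0.45, Sesn2, a leucine sensor, at 0.49 and Vldlr, a lipoprotein receptor, at -0.60, with limma adjusted p of 0.348 or more. The 18 aminoacyl-tRNA synthetases were split 11 to 7 (median 0.05) with none past the limma threshold and 1 at an unadjusted p under 0.05. That was Cars, which charges the cysteine tRNA, at 1.00, where the controls read 9.14 to 9.63, knockout 3 read 11.28 and the other knockouts 9.97 and 10.06. Among 23 genes of amino acid sensing by mTORC1 the median was -0.06, none passed in limma and 3 had an unadjusted p under 0.05. Sesn3, a sestrin that restrains mTORC1, had the smallest p, at 10.59 to 11.05 in the controls against 11.58 to 12.10 in the knockouts (difference 1.04, SE 0.22, limma adjusted p = 0.098).

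Leaving out 1 array at a time showed how much each value rested on single mice. Of the 12 genes with an unadjusted p under 0.05, all kept their direction in all 6 such fits. The 12 were picked by p on these same arrays, and where groups do not overlap the sign cannot turn. Their kept direction is therefore no evidence of stability. By over 1.5 times, 3 moved: Slc43a2 without control 3, Slc6a14 without knockout 2 and Slc7a3 without knockout 3. Of all 60 genes, 24 turned sign in at least 1 fit. Between 6 and 11 genes had an unadjusted p under 0.05 in these fits. No share of all probe sets is given for either count in these fits, so neither is set against a background. None of the 60 passed the adjusted threshold in any fit, where 2 to 43 of all probe sets did.

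**Figure D4:**
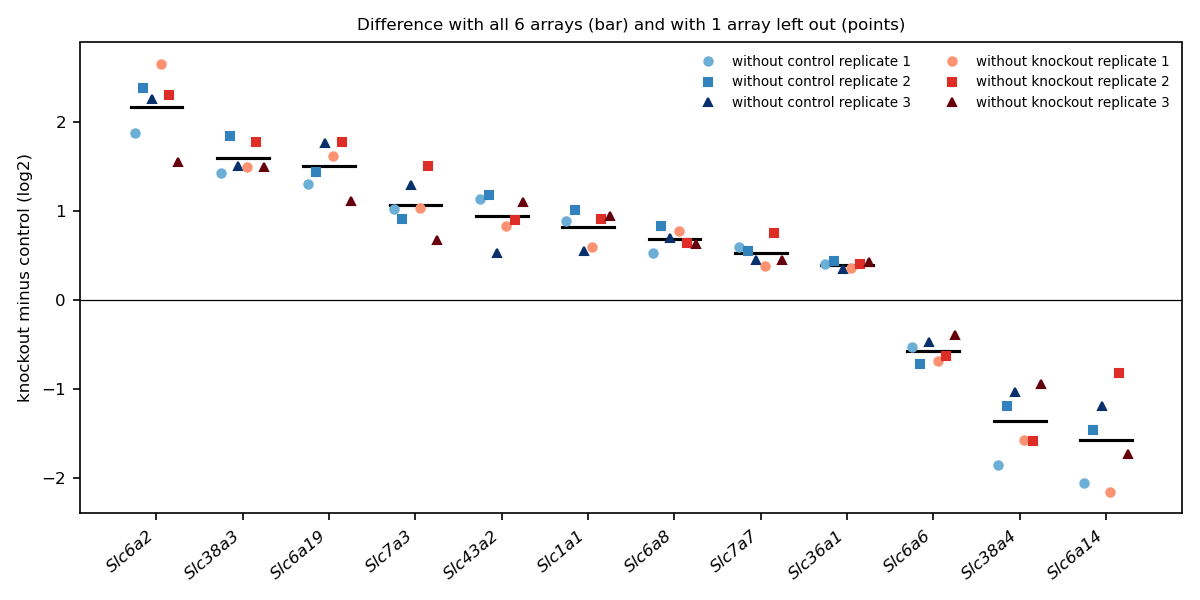
Difference between knockout and control (y axis, log2) for the 12 genes with an unadjusted p under 0.05, with all 6 arrays (black bar) and with each array left out in turn (points, blue for controls and red for knockouts). Every point keeps the sign of its bar, from 1.43 to 1.85 for Slc38a3 and from -2.15 to -0.82 for Slc6a14. The genes were picked by p on the same arrays, and where groups do not overlap the sign cannot turn.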

How the data were processed

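For 6 arrays, 1 per mouse, the deposited values are log2 signals. The submitters' processing notes name RMA and Affymetrix Expression Console. That the scale is log2 follows from the range, 1.96 to 19.93. Settings and versions are not stated. RMA removes shifts common to most probe sets and compresses differences near background. No detection calls were used, and a signal below an array's lower quartile is treated as close to background.

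Of 22206 probe sets, 19572 carry 1 symbol from the platform annotation, updated through RefSeq gene identifiers (GRCm38.p6), 2634 are unnamed and 0 carry several. All probe sets entered 1 limma fit (3.58.1, R 4.3.3; lmFit, eBayes; two-sided tests), and p-values were adjusted over all of them by Benjamini-Hochberg. The members and lists were chosen with earlier results of these data known. Genes picked by rule are both Slc3a genes, the 2 with the highest mean signal and the most different of each family (a ranking of signals, used only to choose), and those with an unadjusted p under 0.05 and groups that do not overlap. Some of these, such as Slc3a1, Slc36a4 and Slc38a10, are given by little more than their difference. Genes outside the rule are mostly given briefly. Slc38a4, Slc6a14, Slc7a7, Slc7a8, Slc6a13 and Th, Dbh, Slc18a2, Phox2a and Cltrn were added after their values were seen. On simulated data with 22206 probe sets the fit recovered 26% of changes of 1 log2 unit, 84% of 2, 100% of 3 and 100% of 4 (50 each), with 8 false calls among 163. The simulated noise was normal and independent, with variances drawn from the distribution that limma fitted here. These rates hold for such noise and not necessarily for the real arrays. Figures were drawn with matplotlib 3.10.9.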

Additional observations from a re-analysis of the deposited data

How the results depend on the processing

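The count of transporter genes past the threshold was 0 with quantile normalization renewed, with arrays centred on their medians, among probe sets above the median level, with the replicate block, without Slc7a6os (chosen after seeing the data) and without any single array. It was 1 with a variance trend and robust fitting (Slc38a3, limma adjusted p = 0.0419), 1 with the Y-linked level as covariate (Slc38a4, 0.0457) and 1 at an adjusted p of 0.1 (Slc38a3). Over all probe sets the count of 75 became 118 with trend and robust fitting, 260 at an adjusted p of 0.1, 63 with the replicate block, and 2 to 43 without 1 array. The median difference over the transporter genes stayed between -0.09 and 0.05. That of Slc3a was -0.18 among probe sets above the median level, where Slc3a2 is left alone, and that of Slc43a was -0.41 to 0.30 without 1 array. Without 1 array, 24 of the 60 genes turned sign, with no background share given. Among the 20 genes picked by rule these were Slc36a4 (-0.10 to 0.27), Slc38a10 (-0.19 to 0.082), Slc43a3 (-0.69 to 0.30) and Slc7a5 (-0.26 to 0.51), and the cause was not tested. Deviations of same-numbered arrays correlated by -0.009, 0.076 and 0.017, and not every array correlated best with its own number, so the numbers were not taken as pairs. The replicate block changed no call of a transporter gene, and the smallest limma adjusted p among them was 0.0626 with it. Every gene has 1 probe set, so averaging probe sets alters nothing. Signal over background limits 18 of the 60 genes, which lay below the lower quartile on at least 1 array.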
